A study of Drosophila melanogaster with 10 samples.

Results

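The alkaline phosphatase family of *Drosophila melanogaster* was measured in Malpighian (renal) tubules and in whole flies. Its members are the probe sets whose single annotated gene now carries a symbol made of Alp and a number. The rule found 12 of 13,966 probe sets, or 12 of 10,844 genes that had a probe set of their own, 1 for each of the 12 genes with such a symbol in the RefSeq gene table: Alp1, Alp2 and Alp4 to Alp13. Alp4 was formerly Aph-4, Alp2 was Aph-2 and Alp1 was Aph-1. The tubule group held 5 arrays of tubules dissected from Oregon R adults, mixed in sex and 7 days old, and the whole fly group held 5 arrays of entire flies of the same strain and age. Neither group was treated. Each array used RNA pooled from many animals, and each tubule array, numbered 2 to 6, had a whole fly array of the same number from the same culture. The values are MAS 5.0 signals in arbitrary units, scaled alike on all arrays, and enrichment stands for the average, over the 5 pairs, of tubule signal divided by whole fly signal. Since the flies still held their tubules, the ratio sets a tissue against a whole that contains it, and in such pooled RNA fewer cells of a type and less RNA per cell cannot be told apart.

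Alkaline phosphatases are zinc- and magnesium-dependent enzymes that split phosphate from a wide range of small esters, and most are held on the outer face of the cell membrane by a glycolipid (GPI) anchor. In mammals the enzyme is a classical stain for the brush border of the kidney proximal tubule and of the intestine, where absorptive membranes face a lumen. In the fly Alp4 is the best known member: it is expressed in the lower tubule and in the ellipsoid body of the brain, and insertions in the gene drive widely used lower tubule reporters. The arrays were made from entire tubules, so they carry no information on the segments. The individual substrates of the fly enzymes are not given by the sources used here, and the members are therefore ordered by how their signal stood between tubule and fly.

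The tissue labels were checked against markers. The principal cell gene ct (enrichment 4.58 ± 1.73) and the stellate cell genes tsh (4.55 ± 1.73) and Lkr (2.89 ± 0.823) were all higher in tubule (SD, n = 5 pairs), and each passed (adjusted p of 1.4e-04 to 2.7e-04, limma). Of 32 midgut digestive enzyme genes 0 were higher and 23 lower (0 and 26 at an unadjusted p under 0.05), beside 16.8% and 36.3% of all probe sets. The tubule arrays stood apart from each other for these genes. Their summed signal was 1,912 to 34,466 in tubule arrays and 51,010 to 68,635 in fly arrays, and it was low in tubule arrays 4 and 6. The lowest value of the 32 in a tubule array was 2.90. No signal on these arrays was 0, the lowest being 0.1, so the values do not show that each of these genes was detected. The hindgut genes byn and otp averaged 34.1 and 26.4 in tubule and 30.2 and 21.6 in flies, and all 5 muscle genes measured were lower in tubule (summed signal 455 to 921 in tubule and 4,897 to 5,869 in flies).

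The family was split between both directions. Alp2, Alp4, Alp7, Alp8, Alp12 and Alp13 were higher in tubule, Alp6, Alp9 and Alp10 were lower, and Alp1, Alp5 and Alp11 did not pass (limma with the pair as a block, adjusted p under 0.05 over all probe sets). Thus 6 of 12 members were called higher, where 16.8% of all probe sets were, and 3 of 12 were called lower, where 36.3% of all probe sets were. In either direction 9 of 12 were called, against 53.1% over the array. The median log2 fold change of the members was 0.97, and that of all probe sets was -0.32 (0.18 under quantile normalization and -0.66 with arrays scaled to RpL32). The split of all calls rests on the scaling, with 31.6% of them toward tubule as deposited, 54.6% under quantile normalization and 18.4% when all arrays were scaled to equal RpL32, but the 6 members called higher and the 3 called lower were called in the same direction under both. With arrays scaled to RpL32 Alp1 was called lower as well (adjusted p = 0.037, limma). The tubule and fly arrays did not overlap for 7 of the 12 members, where 43.7% of all probe sets showed no overlap. In 5 of them (Alp2, Alp4, Alp7, Alp12 and Alp13) tubule was higher, as in 14.1% of all probe sets, and in 2 (Alp9 and Alp10) it was lower, as in 29.6%. Of the 12 members, 7 had a mean of at least 50 over the 10 arrays and passed a filter on low signals. These were Alp2, Alp4, Alp5, Alp6, Alp9, Alp10 and Alp12, and Alp1, Alp8 and Alp11 were under 50 on every array. After that filter 3 of 7 members were called higher, where 30.4% of the 6,125 probe sets left were, and 3 of 7 lower, where 43.1% were. The filter used the mean of both groups together, so a member could pass through the group where it was high. Alp9 passed through the fly arrays alone (mean 7.76 in tubule and 176 in flies). The counts after the filter are therefore partly set by that choice. With every signal under 50 raised to 50, 3 of 12 were called higher, beside 12.1% of all probe sets, and 3 of 12 lower, beside 17.6%. The calls lost were those of Alp7, Alp8 and Alp13.

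**Figure D1:**
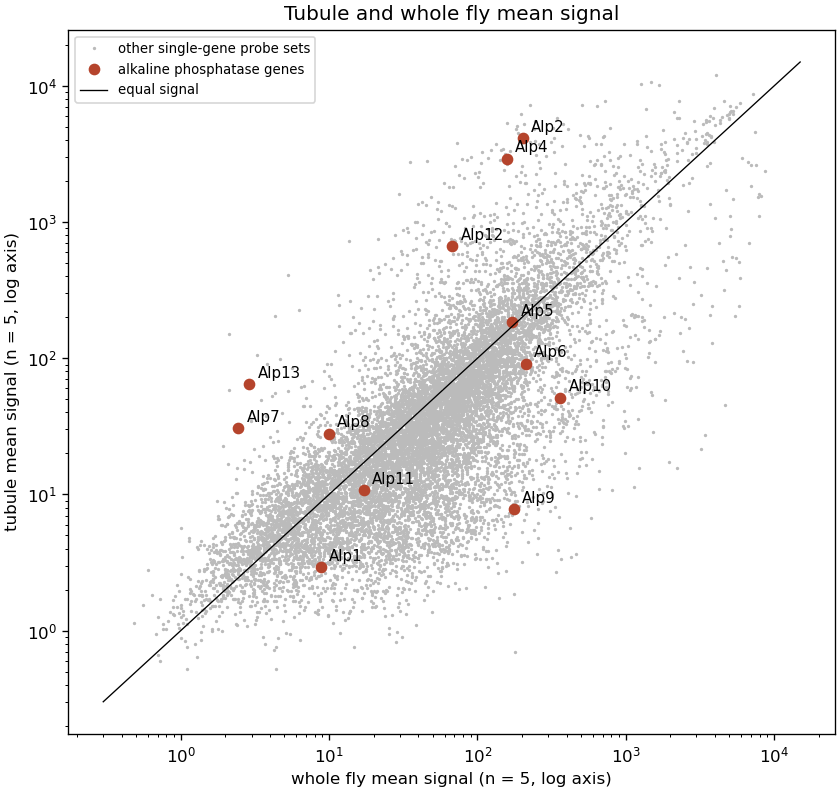
Mean tubule signal (y axis) against mean whole fly signal (x axis), both in arbitrary units on log axes, for single-gene probe sets (grey) and the 12 alkaline phosphatase genes (red), n = 5 arrays a group. Alp2, Alp4 and Alp12 lie far above the line of equal signal at high tubule signals, Alp7 and Alp13 at very low fly signals, and Alp9 and Alp10 far below it.

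Alp4 (CG1462), the lower tubule marker, had the steadiest signal of the family in both groups. It read 2,457, 3,528, 2,927, 2,706 and 2,999 in tubule arrays 2 to 6, against 140.1, 146, 162, 183 and 156 in the fly arrays. The groups were far apart, and no array of either group stood out. The within-pair ratio ran from 14.8 to 24.2 and gave an enrichment of 18.8 ± 3.45 (SD, n = 5 pairs). The coefficient of variation was 13.6% in tubule and 10.6% in flies, beside medians of 14.98% and 16.9% over all probe sets with a group mean of at least 50. The fitted log2 fold change was 4.21 (SE 0.11, 95% interval 3.95 to 4.47, adjusted p = 8.8e-08), which was the 86th highest of the 13,966 probe sets. It lay between 3.87 and 4.29 under every alternative tried.

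Alp2 (CG3290) was as strongly enriched but less even among the fly arrays. Its signal was 3,234, 4,057, 5,399.9, 3,619 and 4,338 in tubule arrays 2 to 6, and 352, 180 (179.7), 202, 137 and 136 in the fly arrays. Tubule array 2 was the lowest of its group and fly array 2 the highest of its own, so the ratio was 9.18 in pair 2 and 22.6 to 31.8 in the other 4 pairs. The enrichment was 23.3 ± 8.56 and the log2 fold change 4.43 (SE 0.24, 95% interval 3.89 to 4.97, adjusted p = 2.4e-06). The intervals of Alp2 and Alp4 overlap, and the difference between their fold changes was not tested.

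Alp2 lies between Alp7 and Alp8 in the order of genes of the RefSeq table (*Drosophila* release 6), with no other gene listed between them. All 3 neighbours were called higher in tubule, yet Alp7 and Alp8 gave far weaker signals. Alp7 (CG3292) had 58.3, 9.6, 46.3, 28.5 and 9.8 in tubule arrays 2 to 6 and 2.5, 1.9, 2.0, 2.3 and 3.5 in the fly arrays. Every tubule array was above every fly array, but tubule arrays 3 and 6 were several times lower than arrays 2 and 4, a split that neither Alp2 nor Alp8 shared. The ratio ran from 2.80 to 23.3 (enrichment 13.3 ± 9.70, log2 fold change 3.31, SE 0.54, adjusted p = 0.0011). Alp8 (CG3264) had 36.2, 21.8, 26.0, 21.9 and 32.7 in tubule arrays, against 11.2, 22.2, 10.8, 2.8 and 2.6 in fly arrays. Here the groups overlapped, because fly array 3 reached the level of the lowest tubule arrays, and the ratio there was 0.982. The log2 fold change of Alp8 was 1.91 (SE 0.54, adjusted p = 0.017, higher in 4 of 5 pairs), and its call was lost without pair 5 (adjusted p = 0.055) or without pair 6 (adjusted p = 0.051). Once every signal under 50 was raised to 50, the log2 fold change was 0.04 for Alp7 and 0 for Alp8, so both calls rest on signals below that level.

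Alp12 and Alp13, neither of which has another Alp gene next to it, completed the group that was higher in tubule. Alp12 (CG16771) had 507, 659, 797, 627 and 731 in tubule arrays 2 to 6 and 113, 60.3, 62.2, 56.1 and 47.4 in fly arrays. As for Alp2, array 2 was the lowest of the tubule arrays and the highest of the fly arrays. The ratio was 4.48 in pair 2 and 10.9 to 15.4 in the others (enrichment 11.0 ± 4.04, log2 fold change 3.34, SE 0.24, adjusted p = 1.3e-05). Alp13 (CG5361) had 72.6, 54.3, 49.0, 63.8 and 82.1 in tubule arrays and 2.4, 1.0, 1.6, 4.0 and 5.5 in fly arrays. Its log2 fold change was 4.70 (SE 0.38, 95% interval 3.83 to 5.58, adjusted p = 2.6e-05, enrichment 29.2 ± 15.9). The tubule signals were even (coefficient of variation 20.8%) and the fly signals, all near background, were not (63.4%), so that the ratio ranged from 14.9 to 54.3. The log2 fold change was 2.08 with 16 added to each signal, and with signals under 50 set to 50 it was 0.34 and did not pass (adjusted p = 0.10).

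**Figure D2:**
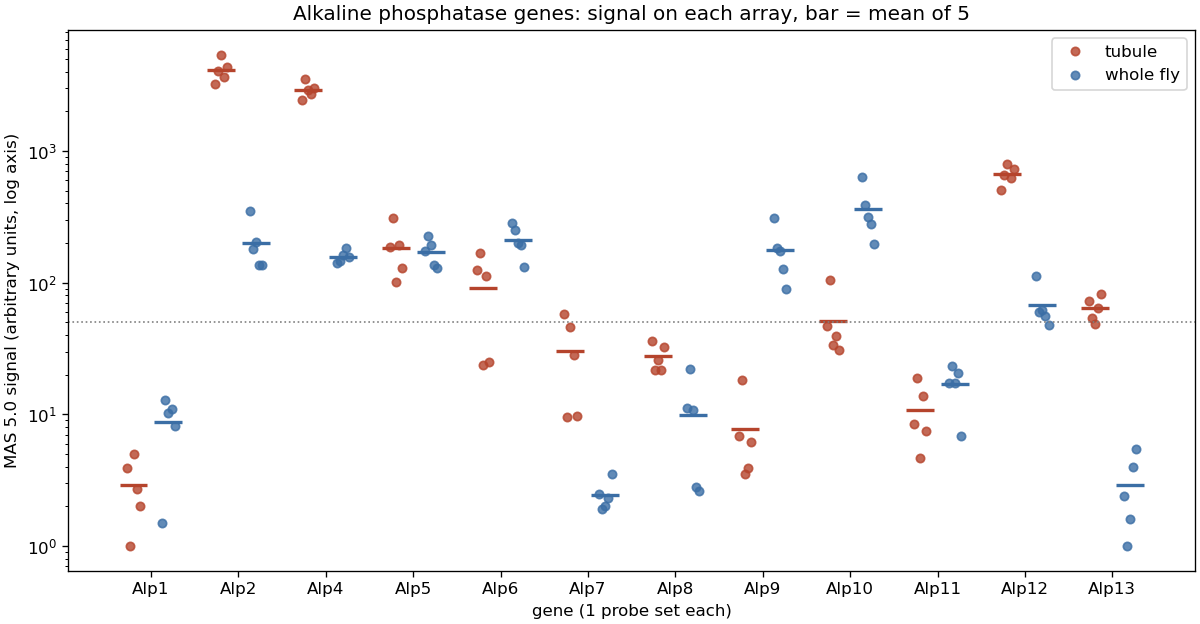
Signal of each alkaline phosphatase gene on each of the 5 tubule arrays (red, left) and 5 whole fly arrays (blue, right), in arbitrary units on a log axis, with the group mean as a bar and a dotted line at 50. Tubule and fly points are separate for Alp2, Alp4, Alp7, Alp9, Alp10, Alp12 and Alp13, while the 5 tubule points of Alp6 fall into 3 at 113 to 167 and 2 at 23.7 and 24.8.

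The genes that were lower in tubule include a second set of neighbours. Alp10 and Alp9 stand next to each other in the RefSeq table with no gene listed between them, and both gave clear signals in flies. Alp9 (CG5150) had 6.8, 18.4, 3.5, 3.9 and 6.2 in tubule arrays 2 to 6, against 307, 184, 173, 127 and 90.3 in the fly arrays. Alp10 (CG10592) had 46.9, 105, 33.5, 39.4 and 30.9 in tubule arrays, against 635, 388, 315, 278.5 and 197 in the fly arrays. For both genes tubule array 3 was the highest of its group, and the fly arrays had one and the same order, with array 2 the highest and array 6 the lowest. The log2 fold change was -4.67 for Alp9 (SE 0.38, enrichment 0.0484 ± 0.0350, adjusted p = 2.6e-05) and -2.87 for Alp10 (SE 0.25, enrichment 0.15 ± 0.075, adjusted p = 3.4e-05), lower in 5 of 5 pairs each. As the tubule signal of Alp9 was near background, the size of its change is uncertain: with signals under 50 set to 50 it was -1.70 and still passed (adjusted p = 0.0091).

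Alp6 (CG1809) was lower in tubule too, and its tubule signal differed between arrays, as did that of Alp9 and Alp10 (coefficient of variation 70.4%, 78.8% and 60.3%). Alp6 had 125, 167, 23.7, 113 and 24.8 in tubule arrays 2 to 6, against 285, 251.5, 199, 195 and 133 in the fly arrays. Tubule arrays 4 and 6 were far below the other 3, whose range reached that of the fly arrays. The midgut digestive enzyme genes put the 5 tubule arrays in the same order as Alp6 did, with medians of 1.47, 1.09 and 0.78 log2 above the tubule mean in arrays 3, 2 and 5, and -1.15 and -1.97 in arrays 6 and 4. In tubule arrays 4 and 6, Alp5 (-0.76 and -0.41), Alp9 (-0.87 and -0.04), Alp10 (-0.45 and -0.57) and Alp11 (-1.02 and -0.35) were also below their tubule means. Each was highest in tubule array 3. Alp2, Alp4 and Alp12 were above their tubule means in both arrays 4 and 6. The part of gut RNA in the tubule signal of Alp6 and the other members was not tested. The log2 fold change of Alp6 was -1.61 (SE 0.36, 95% interval -2.43 to -0.79, adjusted p = 0.0055, limma). Its call was lost by the methods' t-test, which is unpaired, at that test's own threshold and after adjustment (adjusted p = 0.064). The signals had a ratio of 0.119 and 0.187 in pairs 4 and 6 and of 0.438 to 0.664 in the others. Pairs 4 and 6 were fitted by themselves after seeing the digestive enzyme signals, and they are also the pairs with the lowest ratio of Alp6. A larger drop of Alp6 than with all pairs was therefore fixed by the choice (log2 fold change -2.74). In the same pairs Alp9 was at -4.75 and Alp10 at -2.95.

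Of the 3 members that did not pass, only Alp5 (CG10827) gave clear signals. It had 188, 308, 101, 193 and 129 in tubule arrays 2 to 6 and 173.5, 227, 192, 136 and 129.5 in fly arrays, so that the groups lay over each other. The log2 fold change was 0.02 (SE 0.21, adjusted p = 0.93), and its 95% interval allows a tubule signal between 0.731 and 1.41 times that of whole flies. As for Alp6, tubule array 3 was the highest and array 4 the lowest. With pairs 4 and 6 alone, which hold the lowest tubule signals of Alp5 too, the log2 fold change was -0.47, a fall that the choice fixed. Alp11 (CG8105) had 8.5, 19.0, 4.7, 13.9 and 7.5 in tubule arrays and 17.4, 23.3, 17.2, 20.8 and 6.8 in fly arrays, a log2 fold change of -0.73 (95% interval -1.60 to 0.15, adjusted p = 0.14). Alp1 (CG5656) was low in both groups, with 3.9, 1.0, 5.0, 2.7 and 2.0 in tubule arrays and 1.5, 12.9, 10.3, 11.0 and 8.2 in fly arrays. Without pair 2, whose fly array was far below the other 4, Alp1 passed as lower in tubule (log2 fold change -2.20, adjusted p = 0.012, against -1.48 and adjusted p = 0.10 with all pairs). Alp1 also passed as lower with arrays scaled to RpL32 (adjusted p = 0.037, limma) and with 16 added to each signal (adjusted p = 0.042, limma). Its signals were near background in both groups.

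**Figure D3:**
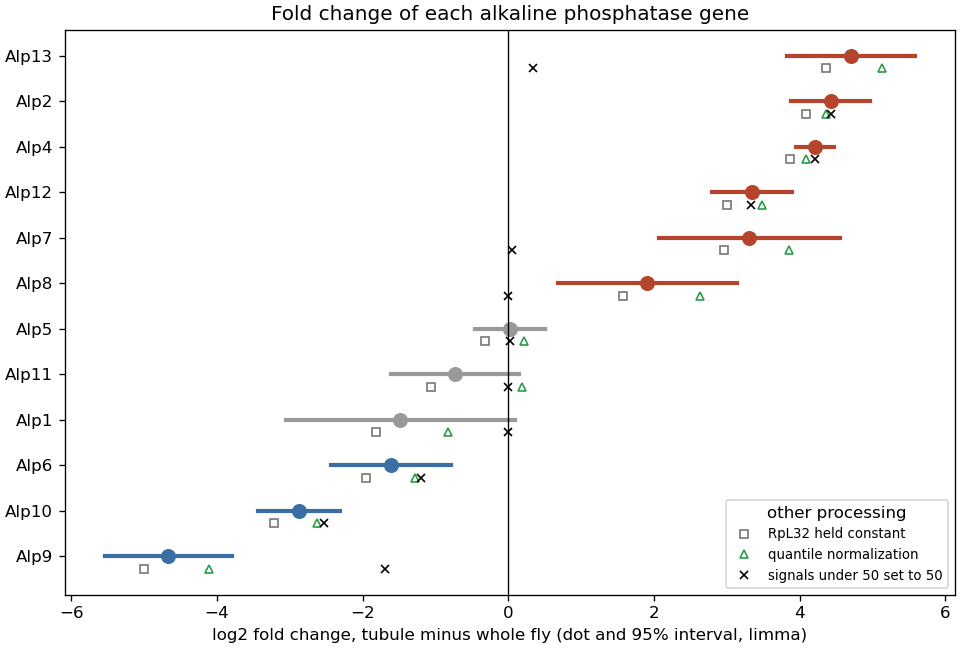
Log2 fold change of each gene, tubule minus whole fly, with its 95% interval (red called higher, blue called lower, grey not called) and the value under 3 other ways of processing. Alp2, Alp4, Alp12 and Alp10 moved little, whereas Alp7, Alp8 and Alp13 came down to 0.04, 0 and 0.34 once signals under 50 were set to 50.

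Among replicate arrays the members did not all vary together, though several shared an array of highest or lowest signal. In the tubule group Alp2 and Alp12 had their lowest signal in array 2 and their highest in array 4 (-0.33 and 0.41 log2 from the tubule mean for Alp2, -0.37 and 0.28 for Alp12). Alp5, Alp6, Alp9 and Alp11 had their lowest signal in array 4, the array in which Alp2 and Alp12 were highest. Tubule array 3 held the highest signal of Alp4, Alp5, Alp6, Alp9, Alp10 and Alp11. In the fly group Alp2, Alp12, Alp6, Alp9 and Alp10 all had their highest signal in array 2 (0.90, 0.81, 0.47, 0.92 and 0.92 log2 above the fly mean) and their lowest in array 6. Alp4 did not, with deviations of -0.16 to 0.22 in the 5 fly arrays. Fly array 6 also held the lowest signal of Alp5, Alp8 and Alp11. The digestive enzyme median was 0.03 in fly array 2 and -0.31 in fly array 6. With pair 2 left out the log2 fold change of Alp2 was 4.74, that of Alp12 3.64, that of Alp9 -4.46 and that of Alp10 -2.65. These are descriptions of 5 arrays a group, and no test was made on them.

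**Figure D4:**
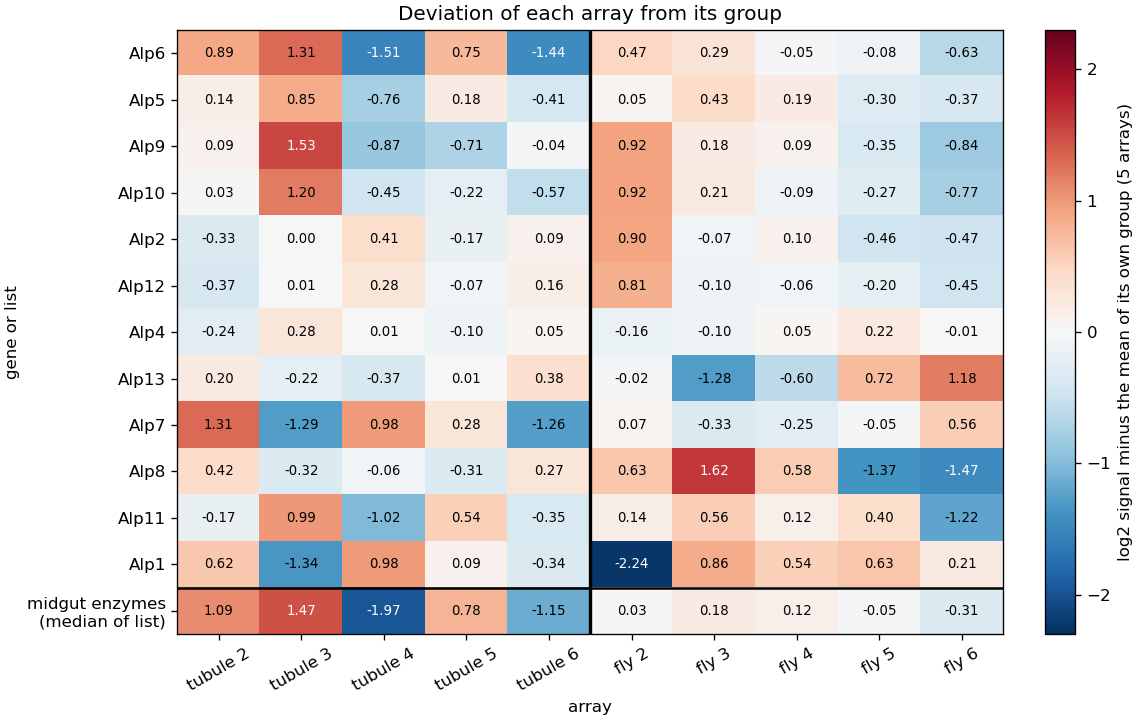
Log2 signal of each array minus the mean of its own group, for the 12 genes (rows) on the 5 tubule and 5 whole fly arrays (columns), with the median of the 32 midgut digestive enzyme genes in the bottom row. The digestive enzymes, Alp6 and, by less, Alp5, Alp9, Alp10 and Alp11 are below their tubule mean in tubule arrays 4 and 6. Alp9, Alp10, Alp2 and Alp12 are 0.81 to 0.92 above the fly mean in fly array 2.

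The genes with the pattern most like that of an Alp gene were taken by the smallest root mean square difference of log2 signals over the 10 arrays, each probe set centred on its own mean, among single-gene probe sets with a mean of at least 50. Because tubule and fly lay far apart, this measure mainly finds genes of similar fold change. For Alp4 they were kumpel (1 of its 6 probe sets, difference 0.16 log2, enrichment 19.9 ± 2.01), CG17110 (0.19, enrichment 22.5 ± 4.77), CG18268 (0.19, enrichment 20.03 ± 2.43), Tango2 (0.22, enrichment 19.7 ± 1.46) and CG31663 (0.22, enrichment 20.2 ± 2.73). The median difference of Alp4 from all 5,428 candidates was 2.25. For Alp2 they were CG6125 (0.16) and CG13309 (0.21), and for Alp12 Ass, which encodes argininosuccinate synthetase (0.16), and CG9717 (0.18). Alp13 had no such close match among the candidates, the nearest being CG14857, at 0.36. Its own mean over the 10 arrays was under 50, so probe sets as dim as Alp13 were not searched.

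Other genes that release, move or anchor phosphate groups were set beside the family. Over all probe sets 16.8% were called higher and 36.3% lower. Of 6 histidine acid phosphatase genes, which split phosphate esters at low pH, 3 were higher in tubule and 1 lower (median log2 fold change 0.55). CG9452 (signal 149.8 ± 43.4, enrichment 5.56 ± 2.42) and CG6656 (signal 145 ± 39.2, enrichment 4.77 ± 1.68) were higher, and Acph-1, the classical acid phosphatase gene (signal 6.90 ± 3.40, enrichment 0.263 ± 0.110), was lower (SD, n = 5, the largest adjusted p of the 3 was 0.0015). Acph-1 was under 50 on all 10 arrays, and its call was lost with signals under 50 set to 50. Mipp1, a multiple inositol polyphosphate phosphatase gene (adjusted p = 0.056), and CG9451 (adjusted p = 0.27) did not pass. Of 5 ecto-5′-nucleotidase genes, whose products strip phosphate from nucleotides outside the cell, 3 were higher and 2 lower (median 1.17). NT5E-2 had an enrichment of 17.7 ± 4.07 (signal 455 ± 62.8, adjusted p = 4.6e-07), and CG42249 one of 4.00 ± 1.30. The genes that were lower, CG11883 (signal 13.0 ± 2.46) and CG30103 (signal 2.88 ± 0.729), had a mean under 50 in both groups and were not called with signals under 50 set to 50.

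Of 6 phosphate transport genes 3 were higher and 3 lower, beside 16.8% and 36.3% of all probe sets (median -0.16). The sodium phosphate cotransporter gene NaPi-T (signal 1,006 ± 151, enrichment 26.8 ± 5.19) and its relative Picot (signal 4,888 ± 767, enrichment 6.73 ± 2.04) were higher. NaPi-III (signal 7.38 ± 8.10, enrichment 0.109 ± 0.135) and Mpcp1, one of the mitochondrial phosphate carrier genes (signal 203 ± 13.2, enrichment 0.177 ± 0.0493), were lower (SD, n = 5, the largest adjusted p of the 4 was 0.0017). Mpcp2, another mitochondrial phosphate carrier gene, named here after its values were seen, was higher (signal 2,172 ± 364, enrichment 2.23 ± 0.291, adjusted p = 3.1e-05). Of 20 genes that build and attach the GPI anchor, 3 were higher, 5 lower and 12 did not pass. The median was -0.25, beside -0.32 over all probe sets, of which 16.8% were higher and 36.3% lower. PIG-O (enrichment 2.65 ± 0.503) and PGAP1 (1.81 ± 0.403) were higher, and PIG-B (0.113 ± 0.0884) and PIG-L (0.336 ± 0.121) were lower (the largest adjusted p of the 4 was 0.013). The counts for the GPI anchor genes turned with the scaling, to 6 higher and 3 lower under quantile normalization and to 1 higher and 11 lower with arrays scaled to RpL32. The shares over all probe sets turned too, to 29.7% higher and 24.7% lower and to 10.4% and 46.2%.

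**Figure D5:**
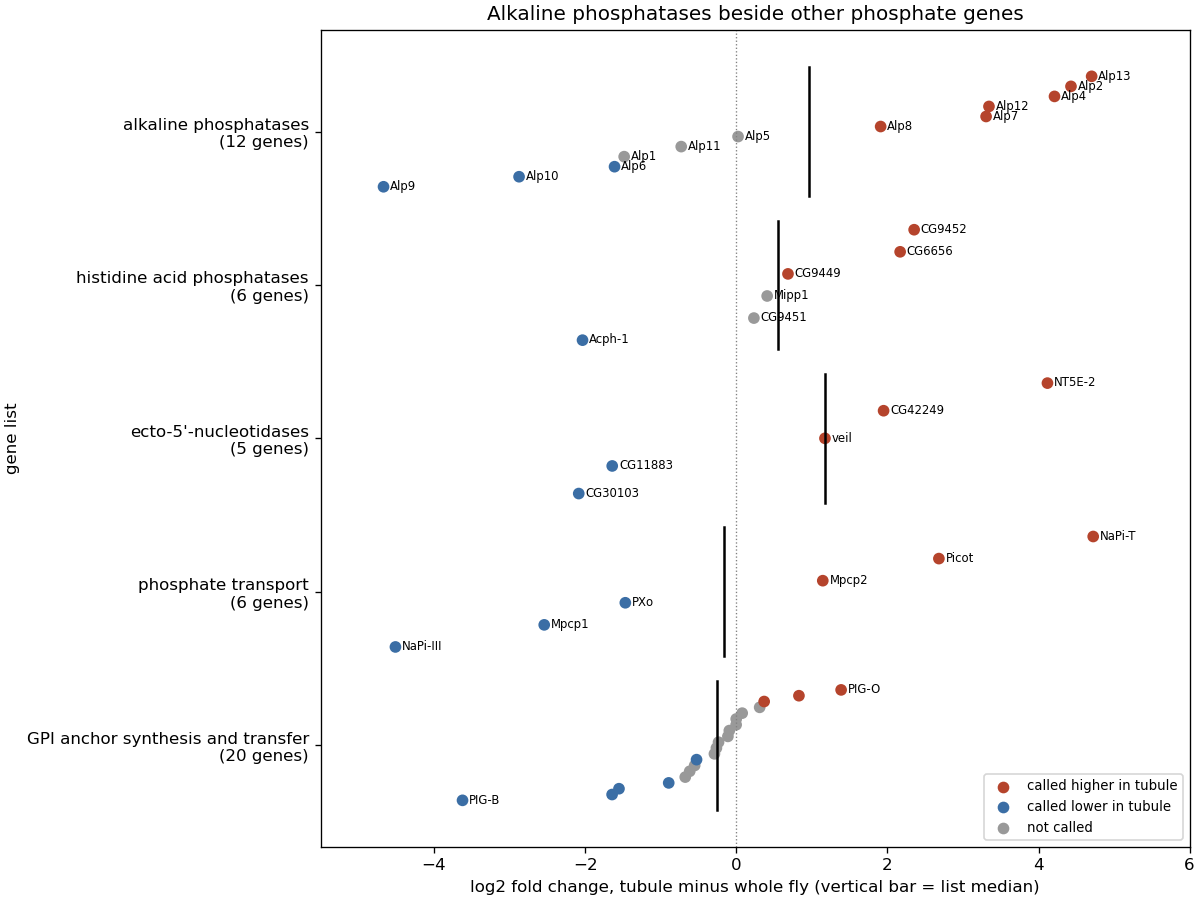
Log2 fold change, tubule minus whole fly (x axis), of each gene of the alkaline phosphatase family and of 4 other lists (rows), coloured by call, with the list median as a vertical bar. The alkaline phosphatases span -4.67 to 4.70 with a median of 0.97, while 12 of the 20 GPI anchor genes were not called.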

How the data were processed

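RNA of 5 tubule and 5 whole fly samples had been hybridised to the Affymetrix *Drosophila* genome array. The deposited values are signal intensities on a linear scale (0.1 to 14,003) that the authors made with MAS 5.0, by background subtraction, robust summary of perfect match minus mismatch probes and linear scaling. They carry no detection calls. Of 14,010 probe sets, 44 array controls were left out. Genes were named from platform annotation with 1 gene (12,443 probe sets), of which 12,394 were updated through RefSeq. Log2 signals were fitted with limma 3.58.1 (R 4.3.3, lmFit, eBayes with trend), the pairs forming the block, and Benjamini-Hochberg adjustment ran over 13,966 probe sets with calls at adjusted p under 0.05. The fit was tested on simulated data; the recovery first asked for over all probe sets was not met, and the criterion was then limited to probe sets with a mean of at least 50. The pairing rests on the study's methods, which take tubules and flies of a culture as matched pairs. Deviations of same-numbered arrays had correlations of -0.09 to 0.09 (6,125 probe sets with a mean of at least 50).

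Where a gene had several probe sets, that with the highest mean signal was used. The genes named were all Alp genes, the most changed genes of each list and those most like an Alp gene. The members and lists were chosen with earlier results of these data known. The list genes with no single-gene probe set (Mipp2, CG7628, Uro, CapaR, gammaTry, deltaTry, Amy-p, Mhc and wupA) were not analysed here. Cross-hybridization between Alp genes was not tested, as no probe sequences were used here. The number of arrays limits the precision. Alternatives were quantile normalization, scaling to RpL32, signals under 50 set to 50, 16 added to each signal, a filter at a mean of 50, no block, each pair left out and the methods' t-test.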

Additional observations from a re-analysis of the deposited data

Results flagged for a closer look

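In 6 of 70 sets of 5 arrays or pairs tested, the highest or lowest value stood apart from the other 4 by Dixon's test at the 95% level, where chance gives about 1 in 20. In tubule array 3 Alp9 had 18.4 (3.5 to 6.8 in the other 4) and Alp10 had 105 (30.9 to 46.9), in the array with the highest digestive enzyme median. Alp12 had 113 in whole fly array 2 (47.4 to 62.2 in the other 4). The ratio of tubule to whole fly signal of Alp1 was 2.6 in pair 2 (0.0775 to 0.485 in the other 4), from signals near background. NT5E-2 had 348 in tubule array 3 (461 to 504 in the other 4), and CG11883 had 8.8 in tubule array 6 (13.6 to 15.2).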

How the results depend on the processing

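Of 163 fold changes of Alp genes computed under alternatives, 147 kept their side of the threshold and did not take the opposite sign. Among these, Alp1 and Alp11 were at 0 with signals under 50 set to 50. Without the block, by the t-test and after the filter the fold change equals that of the main fit, so only the call could change. Of the rest, 8 lost their call, 3 gained one and 5 turned. The 5 were of genes that did not pass: Alp11 under quantile normalization (0.19), and Alp5 when scaled to RpL32 (-0.31), in pairs 4 and 6 alone (-0.47), without pair 3 (-0.081) and without pair 5 (-0.095), its range over single pairs left out being -0.095 to 0.26. Alp13 had the highest fold change with all pairs, but Alp2 was above it without pair 2 (4.74 for Alp2, 4.65 for Alp13), in pairs 4 and 6 alone (4.87 and 4.42), with 16 added (4.31 and 2.08) and with signals under 50 set to 50 (4.43 and 0.34). Called members stood at 3 of 12 higher and 3 of 12 lower with signals under 50 set to 50 (12.1% and 17.6% of all probe sets). With a filter at a mean of 50 they stood at 3 of 7 higher and 3 of 7 lower (30.4% and 43.1% of those tested). That filter let members pass through the group where they were high, so its counts are partly set by it. By the unpaired t-test 5 members were higher and 2 lower at p under 0.01, beside 15.1% and 30.8% of all probe sets, and 6 and 2 after Benjamini-Hochberg adjustment, beside 17.8% and 35.5%. Without the replicate block the members gave the same counts, 6 higher and 3 lower, in place of the paired fit, and 2,491 of all probe sets were higher, so it changed no call of a member. Of all probe sets 4,148 were higher under quantile normalization and 1,451 when scaled to RpL32, and 2,453 were lower with signals under 50 set to 50 and 2,642 with the filter. For these last 2 settings the lower counts were 0 and 0 for acid phosphatases, 0 and 0 for ecto-5′-nucleotidases, 3 and 2 for GPI anchor genes and, with the filter, 1 for phosphate transport. The counts of 0 were fixed by the settings, as Acph-1, CG11883 and CG30103 were under 50 on every array. The filter left 5 acid phosphatase, 3 ecto-5′-nucleotidase, 12 GPI anchor and 4 phosphate transport genes. GPI anchor genes gave 6 higher and 3 lower by quantile normalization, 1 and 11 with RpL32, and 1 and 2 with pairs 4 and 6 alone, where fewer arrays were fitted. The shares over all probe sets were 29.7% and 24.7%, 10.4% and 46.2%, and 11.6% and 25.3% in turn. Signals under 50 limit the sizes given for Alp1, Alp7, Alp8, Alp9, Alp11 and Alp13.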
